A study of Chlorocebus sabaeus with 3 samples.

Results

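The ligands and receptors of the tumour necrosis factor (TNF) family were examined in cell-free RNA of vervet monkey (Chlorocebus sabaeus) amniotic fluid. Members were the gene names built on TNFSF or TNFRSF and a number, together with TNF, LTA, LTB, LTBR, CD40, CD40LG, CD27, CD70, FASLG and NGFR. That rule found 39 of the 33994 genes in the files, 14 ligands and 25 receptors. TNF, LTA and LTB have no row under those names and were not analysed here. The fluid was amniotic fluid supernatant from 3 samples. Their labels give the status stillborn with sex M, spontaneous abortion with NA as sex, and alive with sex F, without saying whether the sex is that of the fetus. The sources used here name no treatment, genotype, maternal age or gestational age. Each status is 1 sample and 1 library, so every comparison below sets library against library, without a p-value. Status, sex and any other difference between the samples cannot be told apart.

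The TNF family is a set of trimeric ligands, mostly made as membrane proteins and shed by proteases, and of receptors that recruit TRAF adaptors or death domain proteins inside the cell. TRAF signalling leads to NF-kB, while death domains can lead to caspase-8 and apoptosis. RANKL (TNFSF11) drives osteoclast formation through RANK (TNFRSF11A) and is held off by the soluble decoy osteoprotegerin (TNFRSF11B). In pregnancy, TNF signalling is known for its part in inflammation of the fetal membranes, and several ligands are made by placenta and decidua.

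Where 3 values stand in a row, their order is stillborn, spontaneous abortion, alive. Levels are given as deposited, in RPKM (reads divided by gene length and by the library's total), and beside them as whole reads recovered from the RPKM values. Each recovered number is a lower bound, since a factor shared by a gene's reads and its length cannot be seen. Library totals came to 17749954 reads (stillborn), 29926352 (spontaneous abortion) and 20220899 (alive). Ratios between libraries are of reads scaled by TMM factors (trimmed mean of M-values), with an exact Clopper-Pearson 95% interval that covers counting error only. A member was counted as apart when it was at least 4-fold different, its interval excluded 1 and the higher library had at least 30 reads. How many cells released an RNA and how much each released cannot be told apart in such fluid.

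Of the 39 members, 31 had reads in at least 1 library and 22 in all 3, so that 20.5% were at 0 throughout, beside 31.5% of all genes. The stillborn library held 27 of them, the spontaneous abortion library 30 and the alive library 22. CD27, CD40LG, NGFR, TNFRSF13B, TNFRSF18, TNFRSF25, TNFRSF4 and TNFSF14 were those listed at 0 in every library. These are mostly receptors and ligands of lymphocytes, among them the T cell help signal CD40LG and the co-stimulatory receptors CD27, TNFRSF4 (OX40) and TNFRSF18 (GITR). The T cell markers CD3D, CD3E, CD2 and CD5 were also at 0 in every library, as were the B cell markers MS4A1, CD79B and PAX5. RPKM 1 was reached by 7, 6 and 6 members. The summed RPKM of all members was 45.9, 37.5 and 34.3.

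**Figure D1:**
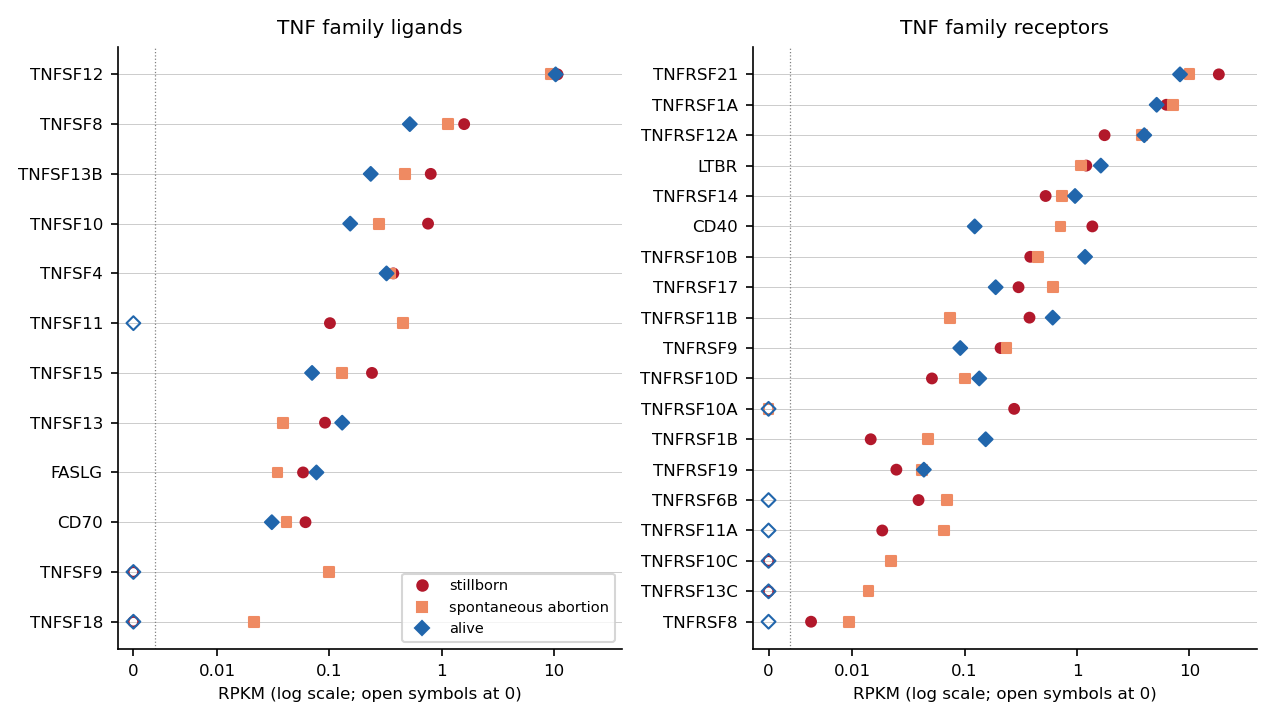
RPKM (log axis) of the 31 members with reads in any library, ligands on the left and receptors on the right, each sorted by mean. Each symbol is 1 library, and open symbols left of the dotted line stand for 0. TNFSF12, TNFRSF21 and TNFRSF1A lie highest, and TNFSF11 is at 0 in the alive library.

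Members apart were counted beside all genes with at least 30 reads in the higher library. Shares of all genes apart, here and below, are of those genes only. Counts from the gene lists below keep listed genes under that limit, which could not be called apart. In stillborn over alive, 1 of the 14 members with at least 30 reads in the higher library was apart on the higher side (CD40) and 0 on the lower. Of the 13498 genes with as many reads, 4.71% were higher and 3.23% lower, 7.94% together. In spontaneous abortion over alive, 2 of 15 members were higher (CD40 and TNFSF11) and 1 lower (TNFRSF11B), where the shares over 13854 genes were 2.30% and 1.51%, or 3.81% together. In stillborn over spontaneous abortion, 0 of 13 were higher and 1 lower (TNFSF11), beside 2.81% and 1.65% of 13858 genes, or 4.46% together. The counts rest on CD40, TNFSF11 and TNFRSF11B alone, and the comparisons with alive share that library.

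Without the limits on fold and reads, an interval that excluded 1 was common. Over the 19 members with at least 30 reads in all, it lay on the higher side for 10 and on the lower side for 4 in stillborn over alive. Of all 15465 genes the shares were 35.4% and 35.3%. In spontaneous abortion over alive these were 9 and 5 members, beside 32.4% and 31.7%. In stillborn over spontaneous abortion they were 9 and 2, beside 30.7% and 33.4%. The median log2 ratio of the 19 members was 0.36, 0.14 and 0.22 in the same order of comparisons, against medians over all genes of 0.00, 0.01 and -0.03. On the scale of total reads the median over all genes moved to -0.16 in stillborn over alive and to -0.15 in stillborn over spontaneous abortion, and that of the members to 0.20 and 0.10.

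**Figure D2:**
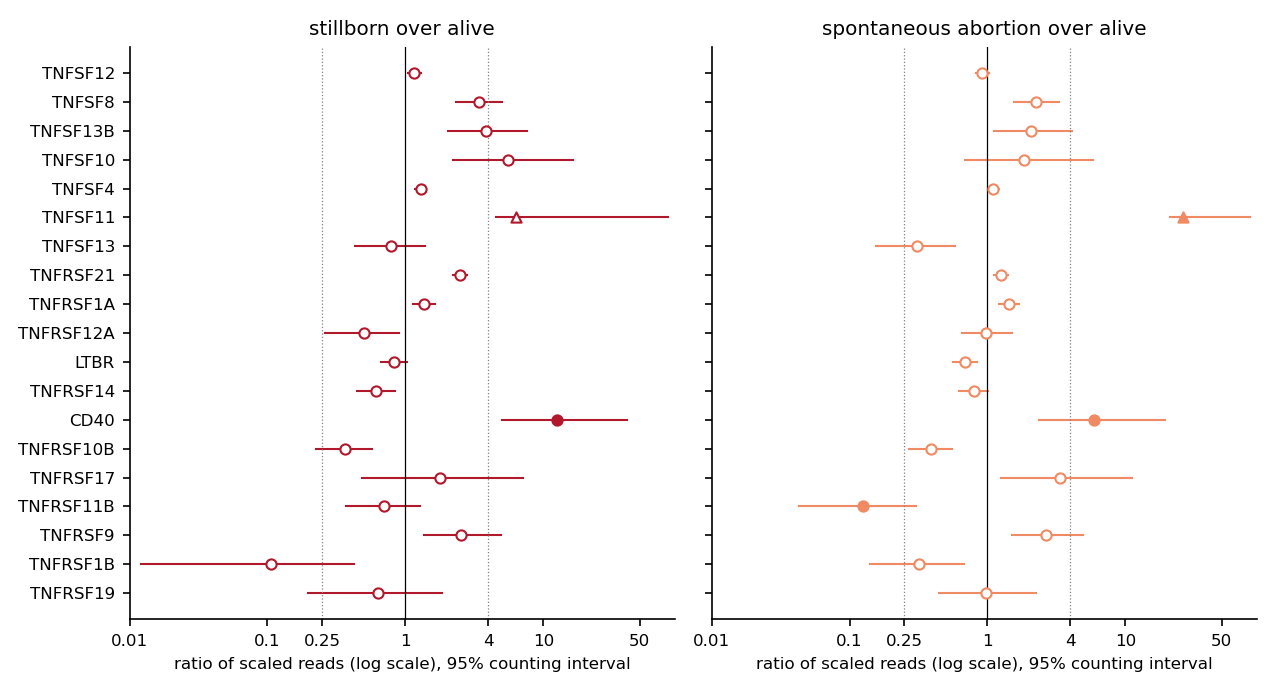
Ratios of scaled reads (log axis) for the 19 members with at least 30 reads in all, stillborn over alive on the left and spontaneous abortion over alive on the right. Lines are exact 95% counting intervals, filled symbols mark members apart, triangles have 0 reads in the alive library and no upper bound (line to the edge), and dotted lines mark 4-fold. CD40 lies at 12.5 and 5.97, TNFSF11 at 26.2 in spontaneous abortion, and TNFRSF11B is the filled symbol below 1.

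The ligand with the highest RPKM in each library was TNFSF12 (TWEAK), an inducer of cell growth and inflammation in many tissues. Its RPKM was 10.7, 9.25 and 10.3, from 595, 865 and 653 reads. The 3 libraries lay close together, with stillborn over alive at 1.16-fold (1.04 to 1.30). In human, TNFSF12 and its neighbour TNFSF13 also make a fused read-through transcript, whose reads cannot be assigned to either gene here. The TWEAK receptor TNFRSF12A (FN14), a small receptor of injured epithelium and stroma, was at RPKM 1.76, 3.79 and 3.97, from 16, 58 and 41 reads. The stillborn library was the low one, 2.01-fold below alive (1.10 to 3.84) and 1.98-fold below spontaneous abortion (1.12 to 3.68).

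TNFRSF21 (death receptor 6), a death domain receptor of neurons and epithelia, had the highest RPKM of the receptors. It stood at 18.3, 10.05 and 8.26, from 925, 855 and 475 reads. The stillborn library was above both others, 2.48-fold above alive (2.22 to 2.78) and 1.99-fold above spontaneous abortion (1.81 to 2.18). TNFRSF1A, the widely expressed TNF receptor with a death domain, was at RPKM 6.24, 7.12 and 5.12, from 245, 471 and 229 reads. Both losses were slightly above the alive library, at 1.36-fold (1.13 to 1.64) and 1.43-fold (1.22 to 1.68). TNFRSF1B, the second TNF receptor, found mainly on leukocytes and endothelium, was at RPKM 0.0146, 0.0476 and 0.154, from 2, 11 and 24 reads. It ran the other way, 9.42-fold lower in stillborn than in alive (2.34 to 82.2) and 3.14-fold lower in spontaneous abortion (1.48 to 7.10), with fewer than 30 reads in each library.

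TNFSF4 (OX40L), a co-stimulatory ligand of antigen-presenting cells and endothelium, had the most reads of all members over the 3 libraries together, and yet a low RPKM. Its reads were 837, 1318 and 830, or 26.2%, 29.2% and 28.9% of the reads of all members, second in stillborn to TNFRSF21 at 28.9%. Its RPKM was 0.370, 0.346 and 0.322. The length by which its RPKM had been divided came to at least 127401 bases, against a median of 3044 over the 31 members with reads. That is far longer than a single TNFSF4 messenger RNA, and the sources used here do not say how the submitters formed it. For TNFRSF8 (CD30) it was at least 39306 bases. The order of members by RPKM is therefore not an order by molecules, and ratios between libraries within a gene, where the length cancels, are the safer measure. TNFSF4 itself differed little, with stillborn over alive at 1.29-fold (1.17 to 1.42).

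**Figure D3:**
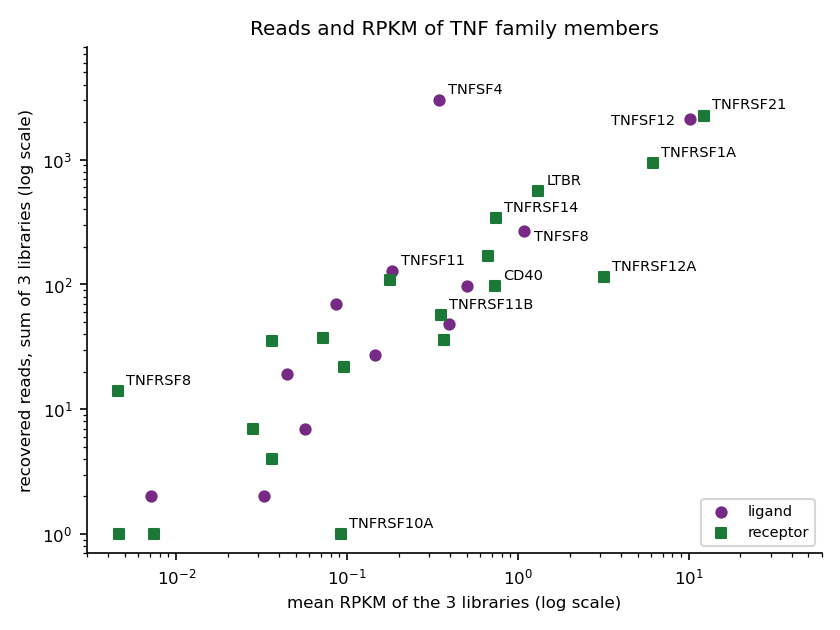
Sum of recovered reads over the 3 libraries against mean RPKM for the 31 members with reads (both axes logarithmic; circles are ligands, squares receptors). TNFSF4 has 2985 reads at a mean RPKM of 0.346, while TNFSF12 has 2113 reads at 10.1.

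RANKL had reads in both losses and none in the alive library. TNFSF11 was at RPKM 0.101 (stillborn), 0.452 (spontaneous abortion) and 0 (alive), from 15, 113 and 0 reads. Osteoprotegerin (TNFRSF11B) was at RPKM 0.378, 0.0747 and 0.608, from 18, 6 and 33 reads. The ligand was thus highest where its decoy was lowest, in the spontaneous abortion library, and absent from the reads where the decoy was highest, in the alive library. RANK (TNFRSF11A) had 1, 6 and 0 reads, with RPKM at or under 0.0659.

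Against alive, TNFSF11 was 26.2-fold higher in spontaneous abortion with 3 reads standing for the 0, and the lower bound of its interval was 20.9. In stillborn it was 6.37-fold higher on the same footing, with a lower bound of 4.57 and fewer than 30 reads. Between the losses it was 4.11-fold lower in stillborn (2.39 to 7.58), a call lost once all libraries were thinned to equal totals. TNFRSF11B was 7.92-fold lower in spontaneous abortion than in alive (3.28 to 23.1) and 5.51-fold higher in stillborn than in spontaneous abortion (2.09 to 16.9), the latter with fewer than 30 reads. Stillborn and alive were not separated for TNFRSF11B, at 1.44-fold lower (0.787 to 2.71).

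A ratio of both genes within a library needs no scaling between libraries. TNFSF11 made up 45.5% of the 33 TNFSF11 and TNFRSF11B reads in stillborn (exact Clopper-Pearson interval 28.1% to 63.6%) and 94.96% of 119 in spontaneous abortion (89.3% to 98.1%). In alive it was 0 of 33, which allows a share of up to 9.09% at 3 reads, with an exact upper bound of 10.6%. The 3 intervals do not overlap. These levels of the share would shift if either gene's reads hide a common factor, but their order over the libraries would not.

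Among 14 osteoclast genes in the files, DCSTAMP, ATP6V0D2 and TREM2 were apart on the higher side in stillborn and none on the lower, both against alive, where 4.71% of all genes were higher, and against spontaneous abortion, where 2.81% were. Their median log2 ratio over alive was 0.94 in stillborn and 0.06 in spontaneous abortion, for the 10 genes with at least 30 reads in all, beside medians over all genes of 0.00 and 0.01. DCSTAMP, the fusion protein of osteoclasts and macrophage giant cells, had 38, 4 and 0 reads in stillborn, spontaneous abortion and alive. ATP6V0D2, a proton pump subunit of osteoclasts, had 90, 3 and 2 reads, and TREM2, a receptor of osteoclasts and tissue macrophages, 88, 16 and 6. The stillborn library was high for these 3, whereas TNFSF11 was highest in spontaneous abortion. In spontaneous abortion over alive 0 of the 14 were apart, beside 3.81% of all genes in either direction. MITF, a transcription factor of osteoclasts and pigment cells, was 1.39-fold lower in stillborn than in alive (1.19 to 1.62). NFATC1, also listed, was level there at 1.06-fold (0.869 to 1.29) and 1.82-fold lower in spontaneous abortion than in alive (1.49 to 2.22). Over the 10 genes, the interval lay above 1 for 7 and below for 1 in stillborn over alive. In spontaneous abortion over alive these were 2 and 2. Of all genes with as many reads the shares were 35.4% and 35.3%, then 32.4% and 31.7%. The highest of the list by mean RPKM were LGR4, a receptor that binds RANKL, at 3.03, 1.92 and 2.02, the macrophage growth factor CSF1 at 1.86, 1.40 and 1.18, and the integrin ITGB3 at 1.09, 0.727 and 0.357. CALCR, the calcitonin receptor of mature osteoclasts, was at 0 in every library, and CTSK had no row under that name.

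Some monocyte and macrophage markers were also high in the stillborn library, and others were not. The summed RPKM of the 9 was 37.7, 10.7 and 13.4, carried by CD68, LYZ, TYROBP and C1QB, and none of the 9 was at 0 in any library. C1QB, a complement subunit of macrophages, was the 1 apart in stillborn over alive, at 4.63-fold higher (2.33 to 10.02). Of all genes, 7.94% were apart there in either direction. CD14, the defining receptor of monocytes, was level in stillborn over alive at 1.03-fold (0.675 to 1.58). It was 8.48-fold lower in spontaneous abortion than in alive (4.15 to 19.6). CD163, a scavenger receptor of macrophages, had 11, 10 and 24 reads. Of the 9, 7 had at least 30 reads in all. In stillborn over spontaneous abortion, 3 of the 9 were apart as higher (CD14, C1QB and TYROBP) and 0 as lower, beside 2.81% and 1.65% of all genes. Their part in the osteoclast gene counts was not tested. Of 10 genes of bone-forming cells, 4 had at least 30 reads in all. SPP1 (osteopontin), which macrophages and epithelia also make, was the 1 apart, at RPKM 71.1, 6.20 and 5.76. It was 13.8-fold higher in stillborn than in alive (12.7 to 15.0), where 4.71% of all genes were higher. Against spontaneous abortion it was 12.5-fold higher in stillborn (11.7 to 13.4), where 2.81% were. In spontaneous abortion over alive 0 of the 10 were apart, beside 3.81% of all genes in either direction. IBSP, DMP1 and SOST, of mineralising bone, were at 0 throughout. RUNX2, the transcription factor of the osteoblast lineage, was at 3.30, 3.41 and 1.80, and PTH1R, the parathyroid hormone receptor, at 0.449, 0.372 and 0.660.

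RANKL also acts downstream of progesterone and prolactin in the mammary gland of the mouse. Of 8 genes of that setting, 3 met the criteria as higher in stillborn against alive, beside 4.71% of all genes, and 1 in spontaneous abortion against alive, beside 2.30%, with 0 lower in each. The median log2 ratio over alive was 2.21 and 0.78, for the 7 with at least 30 reads in all. Some markers of squamous epithelium were high in stillborn as well, with SPRR3, of the cornified layer, at RPKM 131, 4.63 and 2.54. CRNN was at 41.3, 11.4 and 1.39, and the keratin KRT14 at 31.7, 9.64 and 3.78. Others were not, and the keratins KRT13 and KRT4 were highest in spontaneous abortion. In stillborn they were 1.29-fold and 1.48-fold lower than in spontaneous abortion, and 1.38-fold and 1.11-fold higher than in alive. KRT5, a keratin of basal cells, was low in stillborn, at 49.1, 151 and 151. The part of squamous and basal cells in the list of 8 genes was not tested. ELF5, an epithelial transcription factor of mammary gland and trophoblast, was at RPKM 6.69, 2.60 and 0.572, 13.1-fold higher in stillborn (8.15 to 22.2) and 4.68-fold higher in spontaneous abortion (2.88 to 8.03). CCND1 (cyclin D1) was at 17.2, 6.99 and 4.17, and WNT4, a secreted WNT ligand, at 0.229, 0.167 and 0.0519. Both descended from stillborn through spontaneous abortion to alive. The prolactin receptor PRLR was at 7.69, 11.2 and 7.78, with spontaneous abortion the high library, and the progesterone receptor PGR had 20, 1 and 5 reads.

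CD40, the receptor by which T cells license B cells, macrophages and epithelia, was the member apart in both comparisons with the alive library. Its RPKM was 1.37, 0.713 and 0.123, from 49, 43 and 5 reads. The alive library was the low one, 12.5-fold below stillborn (5.004 to 40.2) and 5.97-fold below spontaneous abortion (2.37 to 19.3). The second of these calls was lost after the same thinning. The losses differed from each other by 2.09-fold (1.36 to 3.23). The 2 ratios share the alive library, whose 5 reads limit both.

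Several ligands had the same order as CD40, from stillborn through spontaneous abortion to alive. TNFSF8 (CD30L), a ligand of activated lymphocytes and myeloid cells, was at RPKM 1.58, 1.13 and 0.519, from 104, 126 and 39 reads. TNFSF13B (BAFF), the B cell survival factor made by myeloid and stromal cells, was at 0.797, 0.473 and 0.233, from 42, 42 and 14 reads. TNFSF10 (TRAIL), an inducer of apoptosis, was at 0.754, 0.275 and 0.153, from 26, 16 and 6 reads. Against alive, the stillborn library was 3.399-fold higher for TNFSF8 (2.33 to 5.05), 3.82-fold for TNFSF13B (2.05 to 7.58) and 5.52-fold for TNFSF10 (2.22 to 16.4).

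None of these 3 ligands met all criteria, TNFSF8 and TNFSF13B because they were under 4-fold and TNFSF10 because it had under 30 reads. In spontaneous abortion against alive the values were 2.24-fold for TNFSF8 (1.56 to 3.30), 2.08-fold for TNFSF13B (1.12 to 4.13) and 1.85-fold for TNFSF10 (0.688 to 5.78). TNFSF15 (TL1A), a ligand of endothelium and myeloid cells, had the same order at RPKM 0.239, 0.130 and 0.0700, from 12, 11 and 4 reads. Of the 7 ligands with at least 30 reads in all, 4 had this order, which 24.6% of all 15465 genes with as many reads also had. Those 4 were TNFSF10, TNFSF13B, TNFSF4 and TNFSF8.

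The sum of the 5 neutrophil markers in the files had this order as well, at RPKM 17.6, 3.39 and 1.12, carried by S100A8 at 7.11, 0.519 and 0 and S100A9 at 10.2, 2.81 and 1.10. CXCR2, a chemokine receptor of neutrophils, had 10, 3 and 3 reads. CSF3R, a receptor that defines neutrophils, had reads in the spontaneous abortion library alone. The 7 markers of basal and squamous epithelium summed to 296, 240 and 196, and single genes of that list differed in order, as given above. The monocyte and macrophage sum was lowest in spontaneous abortion, where CD40 was between the others. T cell markers summed to 0.588, 0.0188 and 0, and B cell markers to 0.0826, 0.00184 and 0.317. The part of these cell types in the ligand and CD40 values was not tested.

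TNFSF13 (APRIL), the relative of BAFF that sustains plasma cells, ran apart from it. It was at RPKM 0.0913, 0.0387 and 0.130, from 21, 15 and 34 reads, lowest in spontaneous abortion and 3.26-fold lower there than in alive (1.73 to 6.45). Their shared receptor TNFRSF17 (BCMA), found on plasma cells, was at 0.302, 0.614 and 0.189, from 7, 24 and 5 reads, and was highest in spontaneous abortion. Of the other receptors of these ligands, TNFRSF13C (BAFF receptor) had a single read, in spontaneous abortion, and TNFRSF13B (TACI) had none.

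The TRAIL receptor TNFRSF10B (death receptor 5) ran against its ligand. It was at RPKM 0.384, 0.447 and 1.18, from 26, 51 and 91 reads. The alive library stood above both losses, by 2.75-fold over stillborn (1.76 to 4.43) and 2.57-fold over spontaneous abortion (1.80 to 3.69). TNFSF10 made up 26 of the 52 TNFSF10 and TNFRSF10B reads in stillborn (35.8% to 64.2%), 23.9% of 67 in spontaneous abortion (14.3% to 35.9%) and 6.19% of 97 in alive (2.30% to 13.0%). The share thus had the same order as the ligand. The interval of stillborn touched that of spontaneous abortion at its edge, and that of alive lay below both.

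The other TRAIL receptors with TNFRSF10 names were sparse. The decoy TNFRSF10D had 3, 10 and 9 reads, and the decoy TNFRSF10C 0, 1 and 0. TNFRSF10A (death receptor 4) was at RPKM 0.276 in stillborn and listed at 0 in the others, with a read number that could be recovered only as at least 1. These 4 genes are close paralogs, and reads shared between them cannot be told apart. Osteoprotegerin (TNFRSF11B), also listed as a receptor of TRAIL, had 18, 6 and 33 reads. TNFSF10 made up 59.1% of the reads of this pair in stillborn (43.2% to 73.7%). In spontaneous abortion it made up 72.7% (49.8% to 89.3%) and in alive 15.4% (5.86% to 30.5%). This share was highest in spontaneous abortion, with overlapping intervals of both losses.

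**Figure D4:**
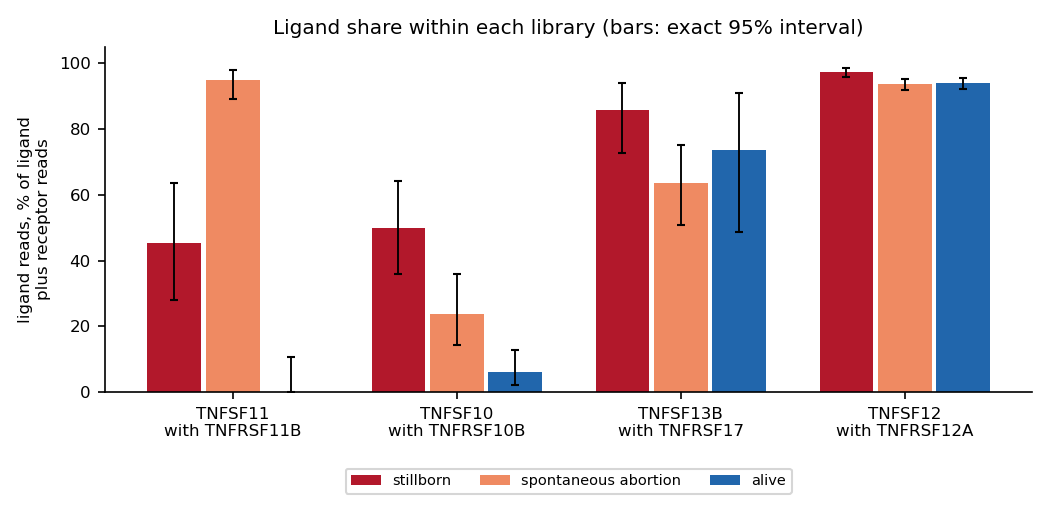
Share of the ligand among the reads of ligand and receptor within each library for 4 pairs of partners, as bars from 0 with exact 95% intervals for counting error. The TNFSF11 share is 45.5%, 94.96% and 0% in stillborn, spontaneous abortion and alive, and the TNFSF12 share lies between 93.7% and 97.4%.

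Several receptors were highest in the alive library. LTBR, the lymphotoxin beta receptor of stroma and epithelium, was at RPKM 1.21, 1.09 and 1.63, from 138, 210 and 212 reads. TNFRSF14 (HVEM), a receptor for LIGHT and BTLA, was at 0.526, 0.740 and 0.961, from 62, 147 and 129 reads. The alive library was 1.63-fold above stillborn for TNFRSF14 (1.197 to 2.25) and 1.45-fold above spontaneous abortion for LTBR (1.195 to 1.77). TNFRSF19 (TROY), a receptor of embryonic epithelium and hair follicle, had 6, 17 and 12 reads, and its intervals held 1 in every comparison. Of the 12 receptors with at least 30 reads in all, 5 had the order alive, spontaneous abortion, stillborn, which 26.0% of all genes with as many reads had. Those 5 were TNFRSF10B, TNFRSF12A, TNFRSF14, TNFRSF19 and TNFRSF1B.

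TNFRSF9 (4-1BB), a co-stimulatory receptor of activated T cells, was higher in both losses. It was at RPKM 0.209, 0.236 and 0.0915, from 32, 61 and 16 reads. Stillborn was 2.55-fold (1.36 to 4.97) and spontaneous abortion 2.65-fold above alive (1.51 to 4.92), and the losses lay together at 1.04-fold (0.667 to 1.65). Its ligand TNFSF9 had 2 reads, both in spontaneous abortion.

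FAS, a death receptor of the family that the naming rule leaves out, had 41, 72 and 17 reads at RPKM 0.419, 0.436 and 0.152. It was 3.07-fold higher in stillborn (1.71 to 5.77) and 2.94-fold higher in spontaneous abortion (1.72 to 5.32) than in alive. Its ligand FASLG, of cytotoxic lymphocytes, had 2, 2 and 3 reads. GNLY and GZMB, granule genes of the same cells, had 21, 6 and 140 reads and 34, 7 and 181 reads. The rest of the NK cell markers did not share these levels. KLRD1, KLRF1 and NKG7 had 0, 0 and 1 reads each, and NCR1 had none. EDAR, the ectodysplasin receptor of skin appendages, had 0, 26 and 1 reads and EDA2R, the receptor of another ectodysplasin isoform, 185, 210 and 152. EDA itself had 13, 20 and 17 reads and RELT, an orphan receptor, 1, 0 and 0. Of FAS, EDA, EDAR, EDA2R, RELT and the adaptors EDARADD and FADD, none was apart in any comparison. Of all genes, 7.94% were apart in either direction in stillborn over alive and 3.81% in spontaneous abortion over alive. In stillborn over spontaneous abortion that share was 4.46%. GNLY and GZMB were both apart as lower in stillborn and in spontaneous abortion against alive, by 5.23-fold (3.29 to 8.72) and 33.6-fold (15.1 to 93.1) for GNLY and by 4.18-fold (2.88 to 6.22) and 37.2-fold (17.7 to 93.9) for GZMB.

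In all, 12 members had reads but fewer than 30 over the 3 libraries, with 1 to 27 reads each and no RPKM above 0.276. They were CD70, FASLG, TNFSF9, TNFSF15 and TNFSF18 among the ligands, and TNFRSF10A, TNFRSF10C, TNFRSF10D, TNFRSF11A, TNFRSF13C, TNFRSF6B and TNFRSF8 among the receptors. At this depth no difference could be read from most of them. TNFRSF8, the receptor of CD30L, had 3, 11 and 0 reads, TNFRSF6B (decoy receptor 3) 1, 3 and 0, CD70 7, 8 and 4 and TNFSF18 (GITR ligand) 0, 2 and 0. Of 29 ligand and receptor pairs listed, 24 had a row for both partners. Both partners had reads in all 3 libraries for 6 of these pairs, in 1 or 2 libraries for 8 and in none for 10.

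The adaptors and kinases behind the receptors were present in every library. All 31 measured genes of the TNF receptor signalling list had at least 30 reads, and 22, 21 and 19 reached RPKM 1. In stillborn over alive, 1 of the 31 was apart, beside 7.94% of all genes in either direction. In spontaneous abortion over alive 0 were, beside 3.81%, and in stillborn over spontaneous abortion 1 was, beside 4.46%. TAB2, an adaptor of the TAK1 kinase, was at RPKM 61.8, 47.6 and 47.7, followed by the ubiquitin ligases BIRC2, at 11.6, 15.1 and 11.8, and TRAF6, at 13.5, 13.0 and 11.8. Their median log2 ratio was 0.08 for stillborn and 0.13 for spontaneous abortion, each over alive. On the scale of total reads the first became -0.08.

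BIRC3, an inhibitor of apoptosis that NF-kB itself induces, was the 1 gene of that list apart from alive. It was at RPKM 0.720, 0.312 and 0.123, from 67, 49 and 13 reads, 6.57-fold higher in stillborn (3.59 to 13.0). TRAF1, another adaptor induced by NF-kB, had 8, 67 and 14 reads and was 4.56-fold lower in stillborn than in spontaneous abortion (2.19 to 11.0). It was thus highest in the same library as TNFSF11. TRADD, the adaptor of TNFRSF1A, was at 0.295, 0.218 and 0.442, and CASP8, the initiator caspase, at 4.93, 5.08 and 6.14.

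Of 14 NF-kB subunits and inhibitors, 1 was apart in spontaneous abortion over alive, beside 3.81% of all genes in either direction. In stillborn over alive 0 were, beside 7.94%, and in stillborn over spontaneous abortion 0, beside 4.46%. The 1 apart was TNIP3, an inhibitor of NF-kB signalling, 4.25-fold higher in spontaneous abortion than in alive (3.04 to 6.10). It had 104, 245 and 40 reads. NFKBIA, the feedback inhibitor, was level at RPKM 17.2, 17.2 and 18.3. RELA, the main activating subunit, was at 9.83, 12.1 and 13.4 and NFKB1, its partner, at 3.88, 6.92 and 7.32. The list's median log2 ratio was 0.01 for stillborn and -0.05 for spontaneous abortion, each over alive, and -0.16 and -0.09 on the scale of total reads.

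Of 26 genes that TNF is known to induce, 4 were higher and 1 lower by the same criteria in stillborn over alive, beside 4.71% and 3.23% of all genes. In spontaneous abortion over alive 3 and 0 were, beside 2.30% and 1.51%, and in stillborn over spontaneous abortion 2 and 1, beside 2.81% and 1.65%. Of the 26, 15 had at least 30 reads in all, and the rest could not be called. SOD2, the mitochondrial superoxide dismutase, was the highest at RPKM 75.5, 36.6 and 38.8, and F3 (tissue factor), the starter of clotting, was at 44.1, 33.5 and 12.4. ICAM1, a leukocyte adhesion molecule, was higher in both losses, from 288, 343 and 34 reads. BCL2A1, a survival protein of myeloid cells, had 55, 6 and 0 reads, and MMP9, a gelatinase of the same cells, had 143, 23 and 16. Both were high in the stillborn library, as the macrophage and neutrophil sums above were, and the part of those cells was not tested.

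Other members of the induced list went their own way. The cytokine IL6 was highest in stillborn, with 187, 122 and 35 reads. The alarmin IL1A had 41, 155 and 17 reads and was 6.33-fold higher in spontaneous abortion than in alive (3.83 to 11.1), while in stillborn it was 3.07-fold higher (1.71 to 5.77). SELE (E-selectin), the adhesion molecule of activated endothelium, had 1, 30 and 0 reads and was again highest in spontaneous abortion. JUNB, an AP-1 subunit, was 4.71-fold lower in stillborn than in alive (2.47 to 9.89). CXCL8, IL1B and PTGS2, common targets of TNF, had no more than 15 reads in any library. CXCL8 had 15, 0 and 0 reads, all in stillborn, while IL1B had 6, 1 and 15 and PTGS2 3, 1 and 2. The list's median log2 ratio over alive was 1.05 for stillborn and 0.25 for spontaneous abortion, over the 15 genes with at least 30 reads in all.

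**Figure D5:**
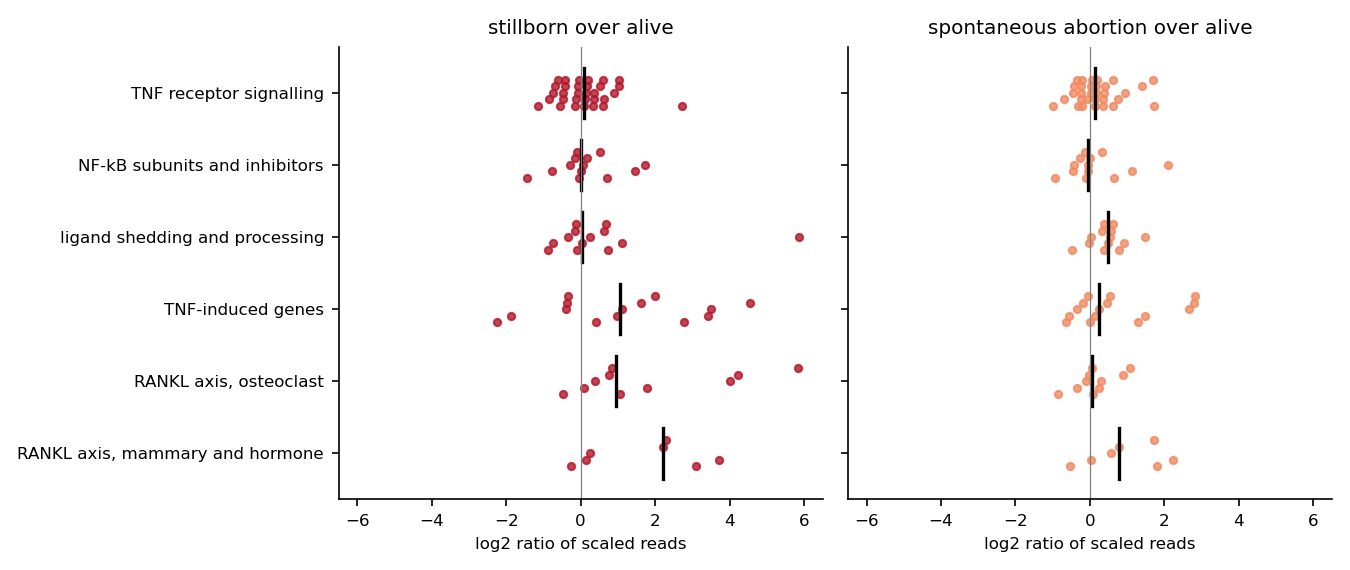
Log2 ratio of scaled reads over the alive library for genes of 6 lists around the family, stillborn on the left and spontaneous abortion on the right. Each point is a gene with at least 30 reads in all, and black bars are medians. The medians of signalling and NF-kB genes lie between -0.05 and 0.13, and those of TNF-induced genes at 1.05 and 0.25, with single genes of every list away from its median.

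Of 13 genes for the release of the ligands and its inhibition, 12 were not apart in any comparison. In stillborn over alive 1 was apart, beside 7.94% of all genes in either direction. The same gene was apart in stillborn over spontaneous abortion, beside 4.46%, and 0 were in spontaneous abortion over alive, beside 3.81%. ADAM17, the TNF sheddase, was at RPKM 3.27, 2.18 and 3.11 and ADAM10, a sheddase of several members, at 5.13, 6.08 and 6.18. FURIN, the convertase that processes APRIL and TWEAK, was at 3.48, 4.29 and 2.35. TIMP3, the inhibitor of ADAM17, was the highest of the list at 27.9, 18.2 and 14.4, and SPPL2A, a protease that cuts the remaining membrane stubs, was at 6.30, 6.32 and 4.36. MMP7 (matrilysin), which releases Fas ligand, was the 1 apart, with 46, 4 and 1 reads. It was 58.6-fold higher in stillborn than in alive (10.01 to 2365) and 21.1-fold higher than in spontaneous abortion (7.71 to 80.7). The list's median log2 ratio over alive was 0.03 in stillborn, or -0.13 on the scale of total reads, and 0.48 in spontaneous abortion.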

How the data were processed

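The deposited values are RPKM, 1 per gene and library, made by the authors. Per the submitters' processing notes, bcl2fastq 2.17, STAR and HTSeq were used; the sources used here give no other version, genome build, annotation, strand setting or RPKM step. Per the labels' protocols, RNA was amplified by SPIA, without molecular identifiers, so intervals cover counting error only.

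Library totals, whole reads and whole gene lengths were solved for together, as the smallest whole numbers that return the printed RPKM. They were found for 23272 of the 23276 genes above 0, and the reads add up to 97.1%, 96.9% and 96.6% of the totals (stillborn, spontaneous abortion, alive). On simulated files of all 3 libraries, 3 of 3 totals came back, 89.0% of 4000 genes had the right reads and 0 lay above the truth.

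TMM factors, computed from these reads with Python 3.11.15, were 0.936, 1.02 and 1.05. A ratio against 0 reads takes 3 reads in their place, and no ratio is given where the other library has 3 or fewer. On simulated reads for stillborn over alive (21581 genes, counting error alone), the call found 100% of 200 genes set to differ 8-fold, and 1 of the rest.

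Members and gene lists were chosen with earlier results of these data known. Values were written out for members apart in any pair or with a mean RPKM of at least 5, and for others by role. Of each pathway list, the genes apart and the 3 with the highest mean RPKM were named, and other genes and markers were added after their values were seen. LOC names were matched to symbols through the RefSeq table of mChlSab1.0.hap1. Alternatives were other scalings, fold limits, read minimums, thinning and log2(RPKM + pseudocount) scales.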

Additional observations from a re-analysis of the deposited data

How the results depend on the processing

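Counts of members apart kept to within 1.5 times under scaling by total reads and by median-of-ratios size factors, for both directions of all 3 comparisons. At 2-fold, 5 members were higher and 2 lower in stillborn over alive, 5 and 3 in spontaneous abortion over alive, and 1 higher in stillborn over spontaneous abortion (CD40). At 8-fold, 1 was higher (TNFSF11) and 0 lower in spontaneous abortion over alive, and 0 lower in stillborn over spontaneous abortion. With at least 10 reads, and likewise with no minimum, 3 were higher (CD40, TNFSF10 and TNFSF11) and 1 lower (TNFRSF1B) in stillborn over alive, and 1 was higher in stillborn over spontaneous abortion (TNFRSF11B). With all libraries thinned to equal totals, 1 was higher in spontaneous abortion over alive (TNFSF11) and 0 lower in stillborn over spontaneous abortion. On log2(RPKM + 0.1) and on log2(RPKM + 1), with a mean RPKM of at least 1, each of the 6 counts was 0, since no member apart reaches that mean. On log2(RPKM + 0.1) with no minimum, 1 was higher in each comparison with alive (CD40 in stillborn, TNFSF11 in spontaneous abortion), 0 were lower in spontaneous abortion over alive, and 0 lower in stillborn over spontaneous abortion. No share of all genes is given beside the counts under these other settings, so changes in them are not read as results about the members. Beyond the settings' own construction the causes were not tested. No paired analysis was possible because each status has 1 sample, and there was no replicate to leave out. Most members are near the limit of depth.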
